A study of Homo sapiens with 12 samples.

Results

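The genes of the mitochondrial genome were followed through the RNA-seq of 2 oral squamous carcinoma cell lines given squamocin. They were taken as every row of both deposited tables whose chromosome is MT. 35 such genes are listed for SCC15 among 29657 genes and 37 for SCC25 among 31055, which makes 37 genes in either table, of 34227 listed in all. They comprise 2 rRNAs, 13 mRNAs and up to 22 tRNAs, and MT-TF and MT-TQ are the 2 tRNAs that the SCC15 table does not list. 28 of the genes lie on the plus strand and 9, MT-ND6 and 8 tRNAs, on the minus strand. Annotated gene positions were the same for all 37 genes in GENCODE release 44 (GRCh38, mitochondrial genome of 16569 bases).

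SCC15 and SCC25 are established human lines of head and neck squamous cell carcinoma, and the labels give the genotype of all cells as WT. Each line was exposed for 24 h either to squamocin, an annonaceous acetogenin (ACGs in the labels) given at 10 µg/mL according to the methods, or to the solvent DMSO, with 3 libraries per group and 12 in all. The labels do not say whether the 3 libraries of a group came from separate cultures, so that p-values measure the spread between these libraries, which may be technical. The markers of squamous epithelium that were checked reached a mean of 10 normalized counts for 5 of 8 genes in SCC15, where KRT5, DSG3 and DSC3 were below it, and for 8 of 8 in SCC25. Their summed values were 112494 to 118786 under DMSO and 208263 to 362488 under squamocin in SCC15, and 23728 to 24261 and 46759 to 49164 for SCC25. The members did not all rise, as 3 of 5 tested were called higher and 0 lower in SCC15, and 5 of 8 higher and 2 lower in SCC25 (limma). Of all genes tested, 30.9% were higher and 30.0% lower in SCC15, and 38.3% and 38.5% in SCC25.

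Mitochondrial DNA is transcribed by the polymerase POLRMT from promoters in the control region, giving long precursors of each strand. Transcripts of the plus strand genes come from the heavy strand promoter and carry both rRNAs, most mRNAs and most tRNAs, whereas the light strand promoter gives MT-ND6 and the minus strand tRNAs. tRNAs lie between most of the longer genes and are cut out by RNase P and ELAC2, which releases the mRNAs and rRNAs between them. The mRNAs encode core subunits of Complexes I, III, IV and V, and the rRNAs and tRNAs serve the translation of these mRNAs inside the organelle. Acetogenins are known as inhibitors of Complex I, whose membrane arm is built on the MT-ND proteins.

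The libraries held from 16665563 to 22748845 reads on listed genes, and from 145442 to 999023 of them were mitochondrial. Values are normalized counts, reads divided by 1 size factor per library that was set within a cell line, so levels were not tested across lines. Squamocin replicate 3 of SCC15 stood apart from replicates 1 and 2 for several of the values below, and 22085 genes were above 0 in it against 23818 and 23280. Without it, 6086 genes were called higher and 6022 lower in SCC15, against 4921 and 4773 with it. Scaling to equal library totals instead moved the median log2 fold change of all genes by -0.51 in SCC15 and by -0.21 in SCC25, and the calls were then 2336 higher and 8170 lower for SCC15. For SCC25 they were 5013 and 7881, against 6335 and 6367 by the deposited factors. Among genes of other cell types, the summed endothelial markers (PECAM1, VWF, CDH5) lay at 158 to 178 under DMSO and 66.1 to 77.1 under squamocin in SCC15, and at 231 to 294 and 19.8 to 36.6 in SCC25. The summed fibroblast markers were at 704 to 781 and 474 to 480 in SCC15 and at 566 to 599 and 883 to 1040 in SCC25. CDH5 is not listed for SCC15, and DCN was at 0 in SCC25 under squamocin. The part of these markers in the results was not tested.

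The stretches of the mitochondrial genome at which neighbouring transcripts responded differently are given first (GRCh38, 5′ to 3′, each on the strand of its gene). MT-TL1, the tRNA for leucine between the rRNAs and MT-ND1, is shown because values rose on its one side and fell on the other. Its capitals mark the 13-base core of the site bound by the terminator protein MTERF1. In the next lines, capitals mark the 46 bases shared by MT-ATP8 and MT-ATP6 and the 7 bases shared by MT-ND4L and MT-ND4, each with 8 bases on both sides, since reads in these stretches cannot be given to 1 gene.
MT-TL1 (MT:3230-3304, plus strand): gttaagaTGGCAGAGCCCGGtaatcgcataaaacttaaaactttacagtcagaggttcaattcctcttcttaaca
MT-ATP8 and MT-ATP6 (MT:8519-8580, plus strand): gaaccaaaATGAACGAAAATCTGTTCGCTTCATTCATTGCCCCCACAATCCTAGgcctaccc
MT-ND4L and MT-ND4 (MT:10752-10774, plus strand): ctactccaATGCTAAaactaatc

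The 4 tRNAs with the most reads are all on the minus strand and are shown because 3 of them fell to different degrees in the cell lines whereas MT-TP was the tRNA whose values moved least. MT-TN, MT-TC and MT-TY carry asparagine, cysteine and tyrosine, and MT-TP carries proline. Capitals in the last line mark the 31 unannotated bases between MT-TC and MT-TN, the region of the light strand origin of replication.
MT-TN (MT:5657-5729, minus strand): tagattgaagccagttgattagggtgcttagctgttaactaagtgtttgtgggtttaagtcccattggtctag
MT-TC (MT:5761-5826, minus strand): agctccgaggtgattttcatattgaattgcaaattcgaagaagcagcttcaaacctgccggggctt
MT-TY (MT:5826-5891, minus strand): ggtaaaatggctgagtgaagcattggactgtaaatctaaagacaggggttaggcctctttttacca
MT-TP (MT:15956-16023, minus strand): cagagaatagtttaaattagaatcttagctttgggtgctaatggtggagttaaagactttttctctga
MT-TC to MT-TN (MT:5722-5768, minus strand): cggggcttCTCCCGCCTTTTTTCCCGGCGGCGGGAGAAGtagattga

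The share of reads on the mitochondrial genome was lower under squamocin in both cell lines, and a larger part of these reads came from the rRNAs and a smaller part from the mRNAs. Where the 3 values of both groups are joined by against, those of DMSO come first. In SCC15, 1.69, 1.73 and 1.73% of the reads on listed genes were mitochondrial under DMSO and 0.959, 0.796 and 0.91% under squamocin. In SCC25, the shares were 4.39, 4.54 and 4.37% against 3.26, 3.497 and 2.45%. The groups did not overlap in either line, and squamocin replicate 3 of SCC25 had the lowest share of its group. The exact permutation test of 3 against 3 libraries gave p = 0.1 in both lines (two-sided), which is the smallest p that this design allows, so that no share or ratio below could pass 0.05. Without the 2 rRNAs, the share was 1.46% ± 0.019 (SD, n = 3) under DMSO and 0.346% ± 0.0464 under squamocin in SCC15, and 3.82% ± 0.0772 and 1.74% ± 0.263 in SCC25. The share is relative to the reads on all listed genes and gives no amount per cell. In bulk RNA, fewer mitochondrial genomes per cell and less RNA from each of them cannot be told apart.

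With DMSO, the mRNAs made up most of the mitochondrial reads in both lines. The mRNAs held 83.6% ± 0.233 (SD, n = 3) of them in SCC15 and 84.9% ± 0.125 in SCC25, and the rRNAs held 15.1% ± 0.222 and 14.2% ± 0.133. With squamocin, the rRNAs made up 61.3% ± 4.096 in SCC15 and 44.02% ± 1.91 in SCC25. The tRNAs went from 1.25% ± 0.0228 to 0.28% ± 0.0311 of the mitochondrial reads in SCC15 and from 0.807% ± 0.0273 to 0.152% ± 0.00253 in SCC25, without overlap between the groups. The ratio of rRNA to mRNA reads was 0.18, 0.179 and 0.185 under DMSO and 1.43, 1.45 and 1.95 under squamocin in SCC15. In SCC25, it was 0.166, 0.169 and 0.168 against 0.827, 0.822 and 0.72. This ratio, which needs no size factor, differed between treatments by log2 values of 3.14 (SCC15) and 2.23 (SCC25) (exact permutation p = 0.1 in each, 0.125 after Benjamini-Hochberg adjustment over the 10 ratios tested).

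**Figure D1:**
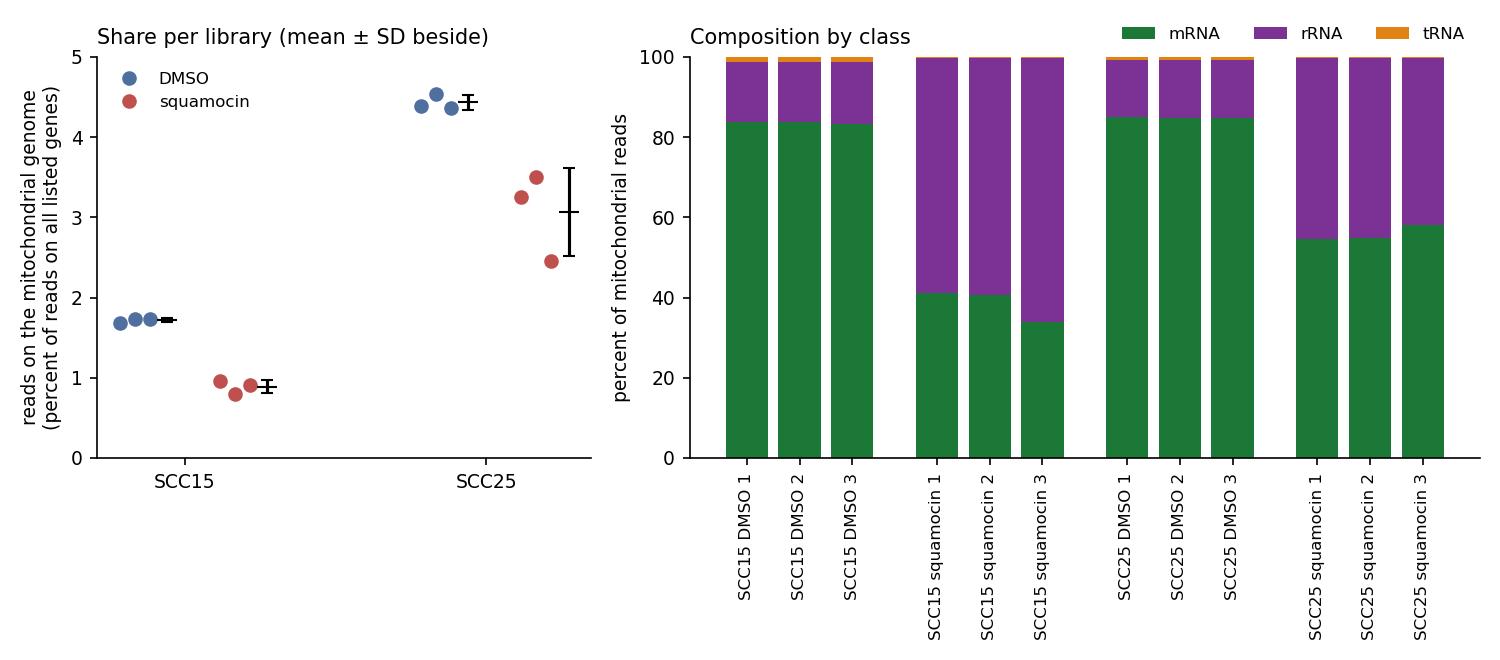
Left, percent of reads on listed genes that lie on the mitochondrial genome in each of the 12 libraries (points) with the group mean ± SD beside them (n = 3). Right, mitochondrial reads of each library split by class in percent. All squamocin libraries lie below the DMSO libraries of their line, and the rRNA part grows from about 15.1% to 61.3% on average in SCC15 and from 14.2% to 44.02% in SCC25.

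The values of both rRNAs rose under squamocin in both lines, while those of most mRNAs fell. Whether RNA was selected by poly(A) or depleted of rRNA is not given in the sources used here. The amount of rRNA in the cells and the part of it that the libraries captured therefore cannot be told apart. 23 of the 35 listed genes passed the filter on low values in SCC15, a mean of at least 10 normalized counts over its 6 libraries, as did 25 of 37 in SCC25. Among the 15 rRNAs and mRNAs, all of which passed it, 2 were higher and 13 lower in SCC15 (limma, Benjamini-Hochberg adjusted p under 0.05), where 30.9% of the 15902 genes tested were higher and 30.0% were lower. In SCC25, 3 were higher, 11 lower and 1 was not called, where 38.3% of 16539 genes were higher and 38.5% lower. The median log2 fold change of the 13 mRNAs was -2.26 in SCC15 and -1.74 in SCC25, and that of all genes tested was 0.012 and -0.015. All 3 squamocin values lay below all 3 DMSO values for 13 of the 13 mRNAs in SCC15, as for 34.9% of all genes tested, and for 11 of 13 in SCC25, as for 39.6%.

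MT-RNR1 (ENSG00000211459, MT:648-1601), the 12S rRNA of the small ribosomal subunit, was at 5671, 5984 and 5917 normalized counts under DMSO in SCC15. It was at 17663, 14309 and 24247 under squamocin, a 3.199-fold higher mean (log2 fold change 1.64 ± 0.18 SE, limma adjusted p = 0.000288). Every treated library lay above every DMSO library. In SCC25, MT-RNR1 was at 11183, 11452 and 10711 under DMSO and 39033, 42370.3 and 25487 under squamocin (log2 fold change 1.65 ± 0.14 SE, limma adjusted p = 1.99e-07). Squamocin replicate 3 was the lowest of its group here and the highest in SCC15. MT-RNR2 (ENSG00000210082, MT:1671-3229), the 16S rRNA of the large subunit, rose 2.95-fold in SCC15, from 33686, 34241 and 35327 to 97559.5, 83648 and 123524 (log2 fold change 1.54 ± 0.17 SE, limma adjusted p = 0.000287). In SCC25 it rose 2.41-fold, from 102311, 107531 and 103164 to 272842, 292608 and 189108 (log2 fold change 1.24 ± 0.12 SE, limma adjusted p = 7.88e-07). The ratio of MT-RNR2 to MT-RNR1 was 9.15, 9.39 and 9.63 under DMSO there and 6.99, 6.91 and 7.42 under squamocin, without overlap, whereas in SCC15 it was 5.94, 5.72 and 5.97 against 5.52, 5.85 and 5.09, with overlap.

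MT-TL1 and MT-ND1 follow MT-RNR2 on the same strand and both fell. In both lines MT-TL1 passed the filter only through DMSO, so that it had to be lower and its folds are a description. MT-TL1 held 85 reads over the 3 DMSO libraries and 3 over the squamocin libraries in SCC15 (20.1-fold lower, 95% interval 6.65 to 99.5, counting error only). It held 338 and 12 reads in SCC25 (21.4-fold lower, 95% interval 12.1 to 41.9). MT-ND1 (MT:3307-4262), the first mRNA, encodes the Complex I subunit at the joint of its arms. It fell 8.37-fold in SCC15, from 7284, 7549 and 7239 to 849.7, 771 and 1018 (log2 fold change -3.07 ± 0.11 SE, limma adjusted p = 5.66e-06). The fall in SCC25 was 6.26-fold, from 22507, 23863 and 22769.5 to 3894, 4217 and 2925 (log2 fold change -2.66 ± 0.10 SE, limma adjusted p = 1.32e-10). Thus, between the end of the 16S rRNA and the start of the first mRNA, across the MT-TL1 sequence printed above, a rise gave way to a fall in every treated library of both lines.

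The 7 Complex I mRNAs did not respond alike. MT-ND2, which encodes a core antiporter-like subunit, fell by 2.26 (SCC15) and 1.62 (SCC25) on the log2 scale, and MT-ND5, the longest mRNA, by 2.24 and 1.74. MT-ND3 (MT:10059-10404), a small subunit of the same membrane arm, was at 2938, 3054 and 2948 under DMSO and 363, 226 and 447 under squamocin in SCC15, an 8.64-fold lower mean (log2 fold change -3.16 ± 0.23 SE, limma adjusted p = 4.68e-05). In SCC25 it was 2.72-fold lower, at 15122, 14082 and 14894 against 5741, 6236 and 4212 (log2 fold change -1.46 ± 0.11 SE, limma adjusted p = 5.84e-08). The fall of MT-ND3 was the larger one in SCC15.

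MT-ND4 (MT:10760-12137), another antiporter-like subunit, was the mRNA that kept most of its level in SCC15 and the 1 mRNA that rose in SCC25. In SCC15 it was at 30712, 31716 and 30820 under DMSO and 22253, 19511 and 20923 under squamocin (log2 fold change -0.57 ± 0.11 SE, limma adjusted p = 0.00303). In SCC25 it went from 94375, 99133 and 93214 to 164568, 180853 and 137410, 1.68-fold higher (log2 fold change 0.74 ± 0.077 SE, limma adjusted p = 1.78e-06). No library overlapped with the other group in either line. MT-ND4L (MT:10470-10766), the small subunit whose reading frame shares 7 bases with MT-ND4 on the bicistronic mRNA, was at 5431, 6143 and 5899 against 3117, 2845 and 1321 in SCC15 (log2 fold change -1.36 ± 0.30 SE, limma adjusted p = 0.006). Squamocin replicate 3 held less than the other libraries of its group. In SCC25, MT-ND4L was at 15868, 16974 and 16104 against 15674, 18209.5 and 14764 and was not called (log2 fold change -0.014 ± 0.064 SE, limma adjusted p = 0.852). It was lower there with equal library totals (log2 fold change -0.22, limma adjusted p = 0.00552). The ratio of MT-ND4L to MT-ND4 reads was 0.177, 0.194 and 0.191 under DMSO and 0.14, 0.146 and 0.0632 under squamocin in SCC15, and 0.168, 0.171 and 0.173 against 0.0952, 0.101 and 0.107 in SCC25. So the ratio of reads on the 2 genes of this mRNA was lower in all 6 treated libraries than in any DMSO library of the same line. It is uncertain as a ratio of levels, as the treatment of reads that touch both genes is not given in the sources used here.

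MT-ND5 is the mRNA that follows MT-ND4 on the plus strand, separated from it by 3 tRNAs. The ratio of MT-ND4 to MT-ND5 was 1.53, 1.69 and 1.501 under DMSO and 3.997, 4.28 and 7.295 under squamocin in SCC15. In SCC25 it was 2.36, 2.37 and 2.29 against 12.5, 13.4 and 13.4. The change was 3.300-fold in SCC15 and 5.597-fold in SCC25, between genes that are transcribed as 1 precursor. These pairs were chosen after their values had been seen and were not tested.

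The 3 Complex IV mRNAs encode its catalytic core. MT-CO1 (MT:5904-7445), the subunit that holds the site of oxygen reduction, had the most reads of all mRNAs under DMSO. It fell 2.55-fold in SCC15, from 76168, 77039 and 77171 to 32224, 26573 and 31543 (log2 fold change -1.36 ± 0.13 SE, limma adjusted p = 0.000171). In SCC25 it fell 3.62-fold, from 259196, 265588 and 255440 to 76511, 79290.5 and 59622 (log2 fold change -1.87 ± 0.083 SE, limma adjusted p = 5.97e-10). MT-CO2 (MT:7586-8269), which accepts electrons from cytochrome c, was the mRNA with the largest difference between the lines. It fell 5.53-fold in SCC15, from 21496, 23713 and 21972 to 3959, 3213 and 4972 (log2 fold change -2.49 ± 0.16 SE, limma adjusted p = 3.23e-05). In SCC25, it was 1.37-fold lower, at 75279, 74658 and 71347 against 56917, 63502 and 40906 (log2 fold change -0.48 ± 0.12 SE, limma adjusted p = 0.00221). The ratio of MT-CO2 to MT-CO1 moved in opposite directions, from 0.282, 0.308 and 0.285 to 0.123, 0.121 and 0.158 in SCC15 and from 0.29, 0.281 and 0.279 to 0.744, 0.801 and 0.686 in SCC25. MT-CO3, which completes the core, fell 6.91-fold in SCC15 and 7.73-fold in SCC25.

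MT-ATP8 (MT:8366-8572) and MT-ATP6 (MT:8527-9207) encode 2 subunits of the membrane part of Complex V on 1 mRNA. MT-ATP8 had the largest fall of the 13 mRNAs in both lines. It was at 454, 398 and 419.9 under DMSO and 32.5, 15.96 and 28.6 under squamocin in SCC15, 16.5-fold lower (log2 fold change -4.05 ± 0.25 SE, limma adjusted p = 3.02e-05). In SCC25, the values were 1556, 1514 and 1538 against 163, 176 and 108, 10.3-fold lower (log2 fold change -3.39 ± 0.14 SE, limma adjusted p = 3.31e-10). MT-ATP6 fell 7.56-fold in SCC15, from 13781, 14409 and 14168 to 1992, 1625 and 1985 (log2 fold change -2.92 ± 0.11 SE, limma adjusted p = 5.49e-06). The fall in SCC25 was 6.09-fold, from 45885, 47468 and 45542 to 8406, 8401 and 6006 (log2 fold change -2.62 ± 0.10 SE, limma adjusted p = 1.47e-10). The ratio of MT-ATP8 to MT-ATP6 was 2.22-fold lower under squamocin in SCC15 and 1.71-fold lower in SCC25. Both values are uncertain, as the 46 shared bases printed above lie within the 207 bases of MT-ATP8 and the treatment of reads that touch both genes is not given in the sources used here.

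MT-CYB (MT:14747-15887), the cytochrome b of Complex III and the last mRNA of the plus strand, fell 3.57-fold in SCC15, from 8578, 9204 and 9067 to 2758, 2265 and 2499.7 (log2 fold change -1.84 ± 0.10 SE, limma adjusted p = 1.84e-05). In SCC25 it fell 2.87-fold, from 33499.6, 35255 and 33990 to 13396, 13959.5 and 8485 (log2 fold change -1.55 ± 0.14 SE, limma adjusted p = 3.78e-07). MT-CYB thus lost less than MT-ND1, the first mRNA. The ratio of MT-CYB to MT-ND1 went from 1.18, 1.22 and 1.25 under DMSO to 3.25, 2.94 and 2.46 under squamocin in SCC15 and from 1.49, 1.48 and 1.49 to 3.44, 3.31 and 2.901 in SCC25 (exact permutation p = 0.1 in each, 0.125 adjusted over the 10 ratios). Across the 12 mRNAs of the plus strand, the order along the genome and the log2 fold change had a Pearson correlation of 0.37 in SCC15 and 0.38 in SCC25 (Spearman 0.37 and 0.43), as a description of genes that share the same libraries. Of these 12 genes, MT-ATP8, in the middle of the order, had the lowest log2 fold change and MT-ND4, near its end, the highest in both lines.

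**Figure D2:**
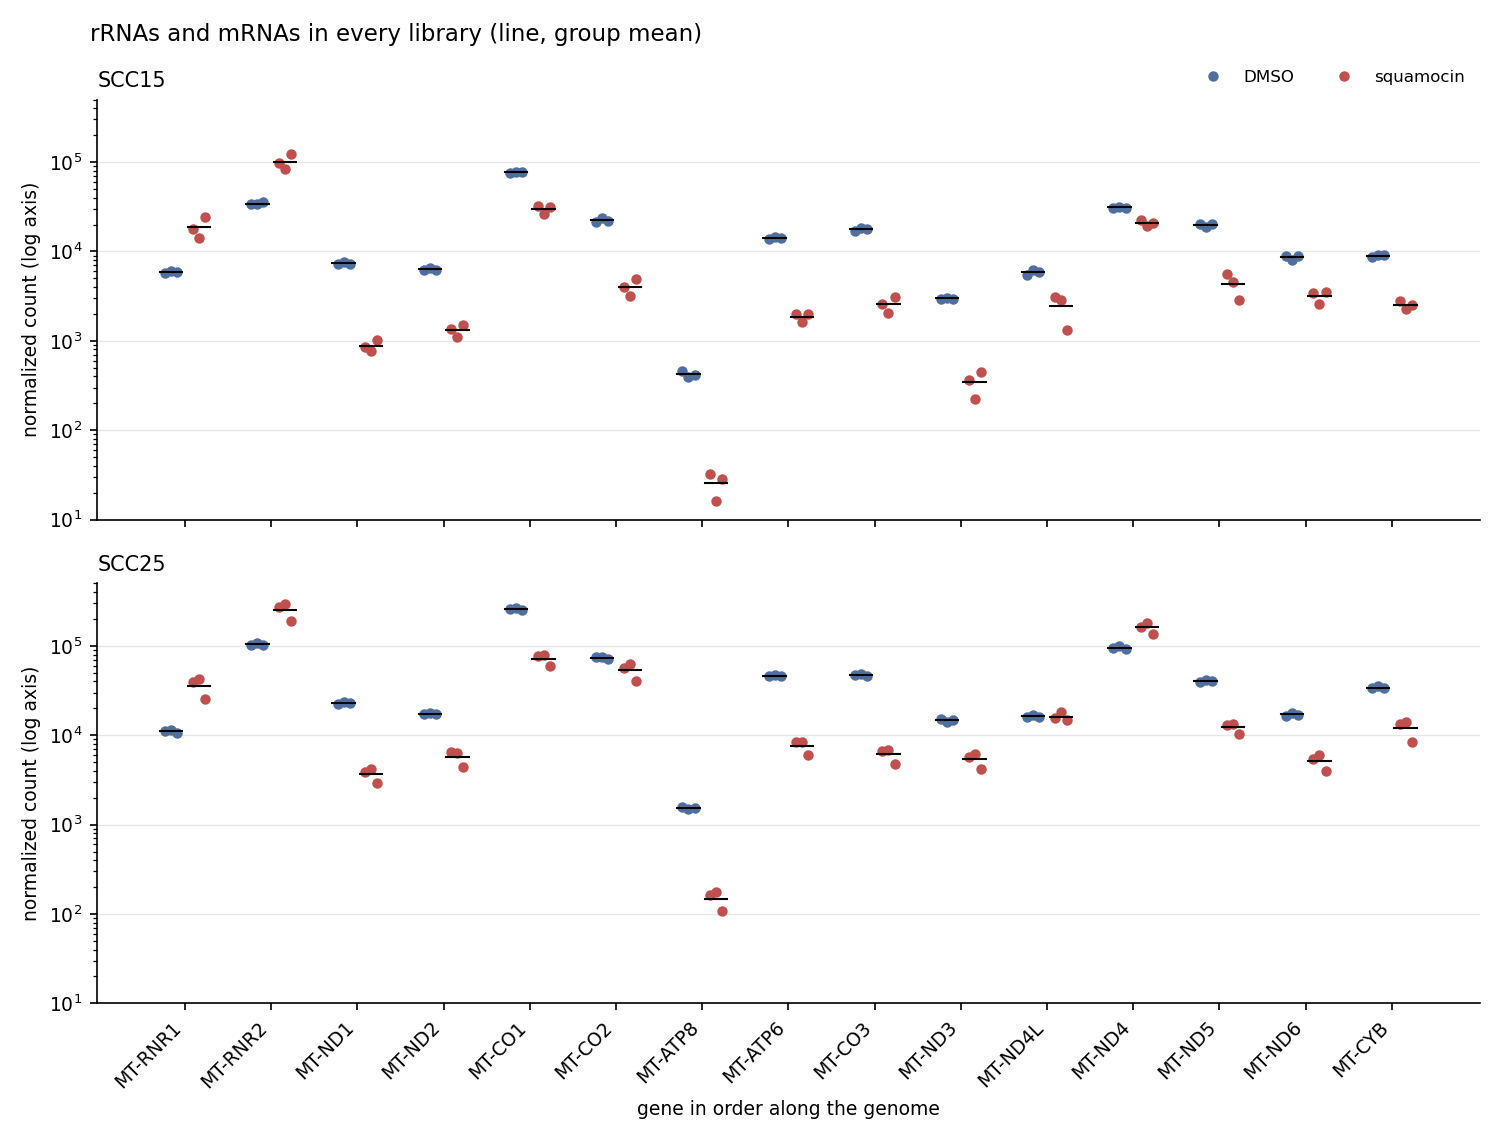
Normalized counts (log axis) of the 2 rRNAs and 13 mRNAs in every library, DMSO in blue and squamocin in red, with the group mean as a line and the genes in genome order. The scale was set separately for each cell line. The treated libraries lie above the DMSO libraries for MT-RNR1 and MT-RNR2 in both lines and for MT-ND4 in SCC25, overlap with them for MT-ND4L in SCC25, and lie below them for the other mRNAs.

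**Figure D3:**
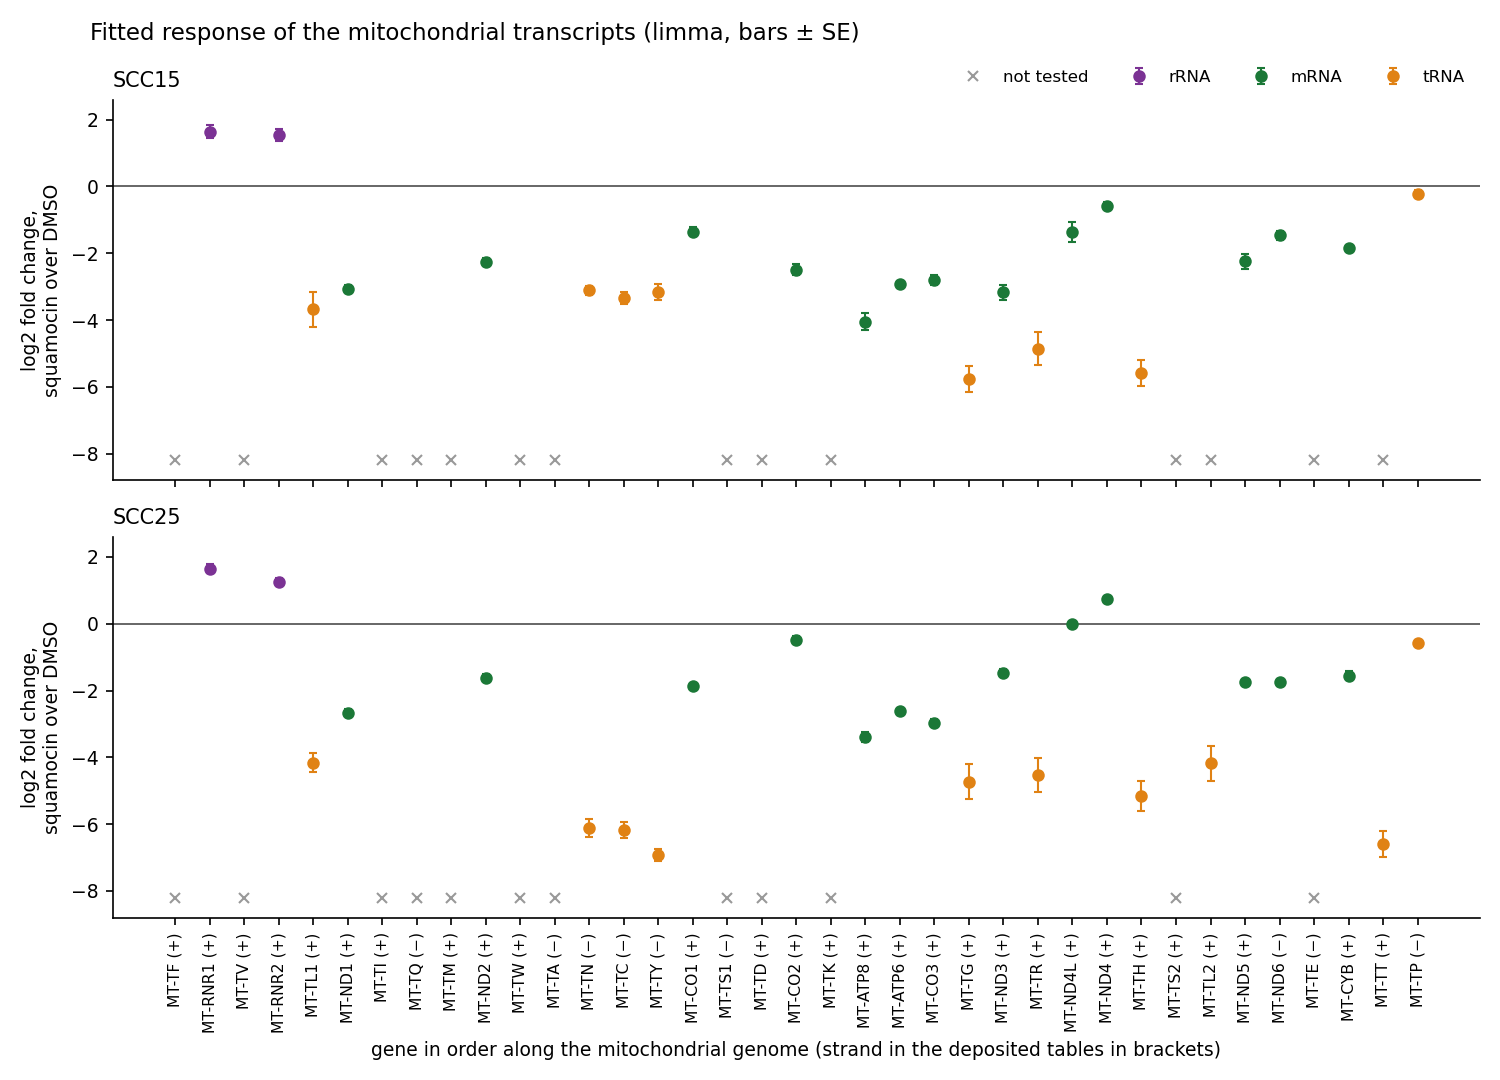
Fitted log2 fold change of squamocin over DMSO with its SE (limma, 3 against 3 libraries) for the 23 genes tested in SCC15 and the 25 tested in SCC25, in genome order, with crosses for genes that were not tested. The rRNAs stand above 0 in both lines, MT-ND4 stands at -0.57 in SCC15 and 0.74 in SCC25, and the mRNA with the lowest point is MT-ATP8. The tRNAs MT-TL1, MT-TG, MT-TR and MT-TH in both lines and MT-TY, MT-TL2 and MT-TT in SCC25 passed the filter only through DMSO and had to lie below 0.

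MT-ND6 (MT:14149-14673) is the 1 mRNA of the minus strand and encodes a Complex I subunit. It fell 2.72-fold in SCC15, from 8878, 8042 and 8897 to 3432, 2567 and 3499 (log2 fold change -1.45 ± 0.14 SE, limma adjusted p = 0.000134). The fall in SCC25 was 3.32-fold, from 16598, 17636 and 17050.3 to 5475, 5982 and 3982 (log2 fold change -1.75 ± 0.11 SE, limma adjusted p = 1.32e-08). Set against the sum of the other 12 mRNAs, MT-ND6 was in SCC15 at 0.0422, 0.0371 and 0.0415 under DMSO and 0.0445, 0.0396 and 0.0485 under squamocin, groups that overlapped (exact permutation p = 0.3, also 0.3 adjusted). In SCC25, this ratio was 0.0248, 0.0257 and 0.0259 against 0.0147, 0.0149 and 0.0136, without overlap (exact permutation p = 0.1, 0.125 adjusted). With the mean log2 over the 12 mRNAs in place of their sum, the difference between treatments was 0.89 in SCC15 and -0.12 in SCC25, against 0.13 and -0.82 with the sum. Whether reads were counted by strand is not given in the sources used here, so reads of minus strand genes and antisense reads from the long plus strand precursor cannot be told apart.

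tRNA genes are short, from 59 to 75 bases, and few reads were assigned to them. The tRNAs held 11902 reads in the DMSO libraries and 1376 in the squamocin libraries of SCC15 in all, and 22771 and 2618 in those of SCC25. Mature tRNAs and precursors that still hold the tRNA cannot be told apart in these reads. In SCC15, 8 of the 20 listed tRNAs passed the filter, 4 of them only through the DMSO group, and in SCC25 10 of 22 passed it, 7 of them only through the DMSO group, so that those had to be lower. With squamocin, 12 tRNAs held 0 reads in SCC15 and 9 held 0 reads in SCC25.

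The reads were unevenly spread over the tRNAs. MT-TC was at 1508, 1549 and 1631 normalized counts under DMSO in SCC15 and 165, 116 and 193 under squamocin, 9.896-fold lower (log2 fold change -3.33 ± 0.18 SE, limma adjusted p = 1.73e-05). In SCC25 it was at 2386, 2475 and 2507 against 52.1, 33.3 and 19.98, 69.9-fold lower (log2 fold change -6.19 ± 0.24 SE, limma adjusted p = 1.60e-10). MT-TC thus fell in both lines, with the larger fall in SCC25. MT-TN fell 8.62-fold in SCC15, from 1037, 993 and 1005 to 133, 96.9 and 122 (log2 fold change -3.11 ± 0.13 SE, limma adjusted p = 9.53e-06). In SCC25 it fell 66.9-fold, from 1472, 1397 and 1637 to 29.2, 27.04 and 11.1 (log2 fold change -6.11 ± 0.26 SE, limma adjusted p = 4.82e-10). MT-TY, which overlaps MT-TC by 1 base, fell 9.01-fold in SCC15, from 236, 189.8 and 229 to 32.5, 22.8 and 17.4 (log2 fold change -3.16 ± 0.24 SE, limma adjusted p = 5.82e-05). In SCC25, 2521 reads under DMSO stood against 13 under squamocin (148-fold lower, 95% interval 86.1 to 277, counting error only). These 3 neighbours lie side by side around the light strand origin printed above, and MT-TC and MT-TN both border its 31 unannotated bases.

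MT-TP was the exception among the tested tRNAs. It was at 274, 308 and 260.1 under DMSO and 255, 249.6 and 212 under squamocin in SCC15 and was not called, although the groups did not overlap (log2 fold change -0.23 ± 0.12 SE, limma adjusted p = 0.134). It was lower there with equal library totals (log2 fold change -0.73, limma adjusted p = 0.00623). The fall in SCC25 was 1.48-fold, from 1359.6, 1394 and 1292 to 934, 1053 and 749 (log2 fold change -0.58 ± 0.10 SE, limma adjusted p = 0.000142). MT-TP lies at the edge of the control region, where the promoters are, with 1122 unannotated bases beyond it.

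Other tRNAs came close to 0 under squamocin. MT-TG held 192 reads under DMSO and 0 under squamocin in SCC15, which is at least 45.4-fold lower against a floor of 3 reads over the group. It held 210 and 5 reads in SCC25 (31.95-fold lower, 95% interval 13.5 to 99.4). MT-TH held 170 and 0 reads in SCC15, at least 40.2-fold lower, and 205 and 2 in SCC25 (77.98-fold lower, 95% interval 21.3 to 648). MT-TR held 200 and 3 reads in SCC15 (47.3-fold lower, 95% interval 15.97 to 231) and 176 and 4 in SCC25 (33.5-fold lower, 95% interval 12.8 to 124). These tRNAs for glycine, arginine and histidine punctuate the stretch from MT-CO3 to MT-ND4. MT-TT, after MT-CYB, held 56 and 0 reads in SCC15, at least 13.3-fold lower, and 429 and 1 in SCC25 (326-fold lower, 95% interval 58.3 to 12920.4). MT-TL2 held 50 and 0 reads in SCC15, at least 11.8-fold lower, and 140 and 4 in SCC25 (26.6-fold lower, 95% interval 10.2 to 99.1). Read intervals and floors cover counting error only. Of the rest, MT-TS2 and MT-TE held 56 and 33 reads under DMSO in SCC15 and 41 and 51 in SCC25, and at most 2 under squamocin. MT-TV and MT-TW reached 66 and 41 reads under DMSO in SCC25 and 5 and 4 in SCC15, and 0 under squamocin in both. The other tRNAs (MT-TF, MT-TI, MT-TQ, MT-TM, MT-TA, MT-TS1, MT-TD and MT-TK) held 30 reads or fewer in every group in which they are listed, too few for a difference to be read from them one by one.

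**Figure D4:**
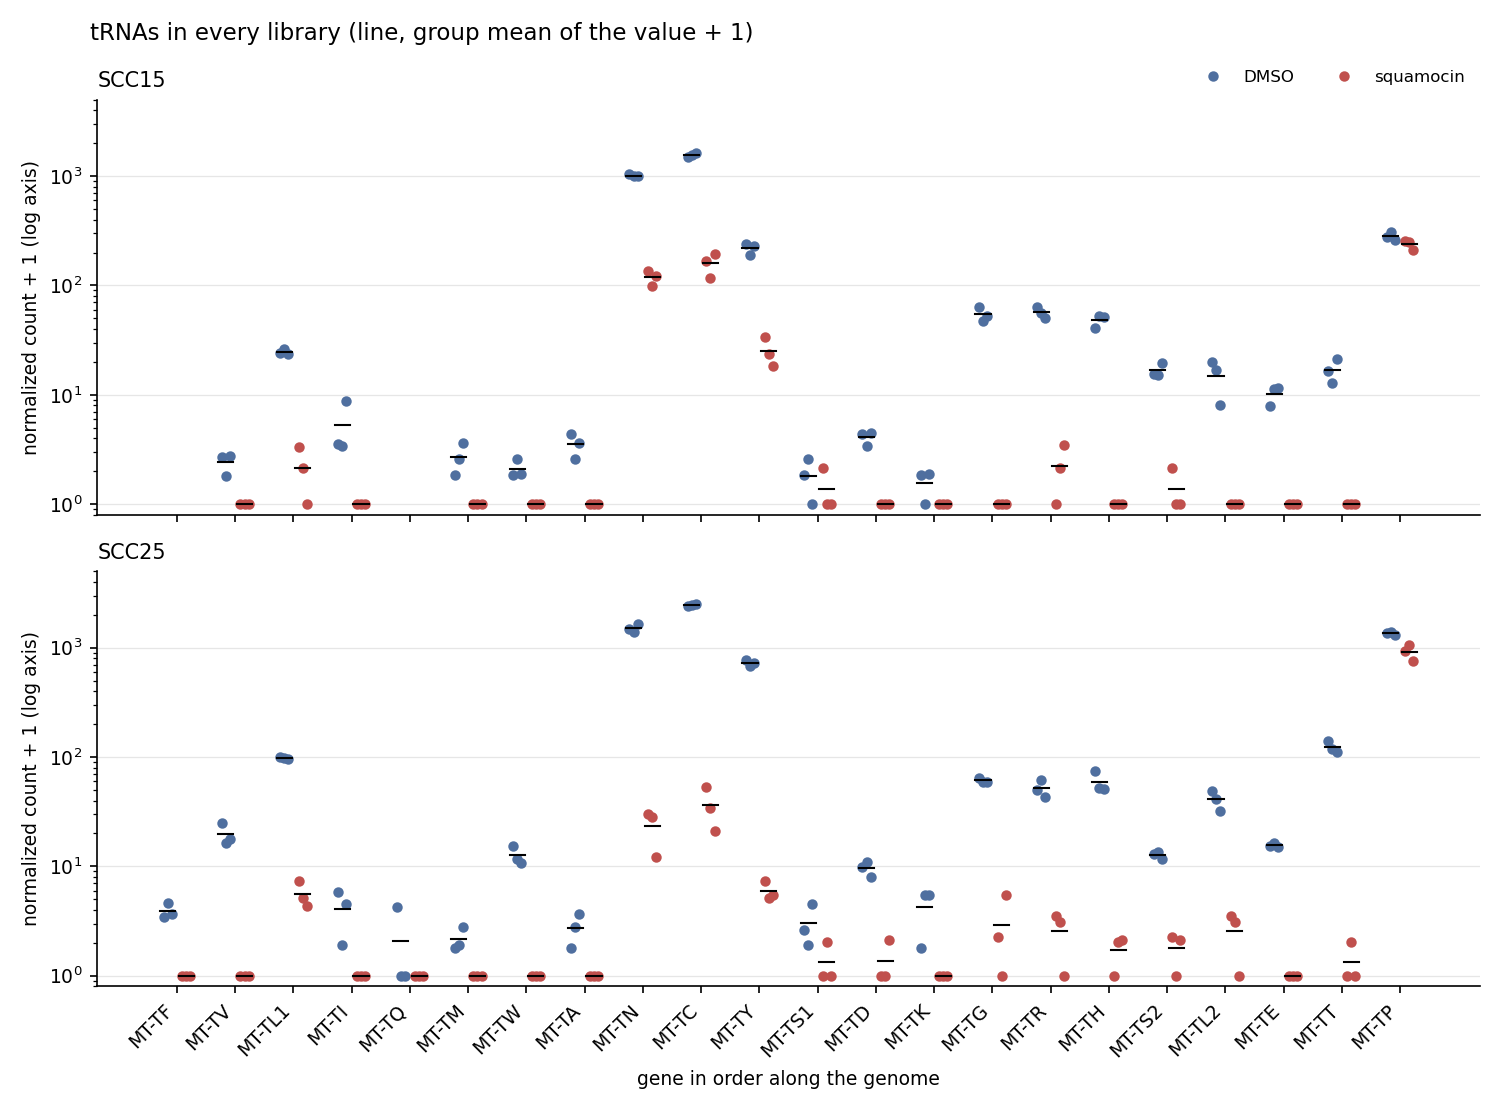
Normalized counts plus 1 (log axis) of the 22 tRNAs in every library in genome order, DMSO in blue and squamocin in red, with the group mean as a line. A value of 0 reads is plotted at 1, and MT-TF and MT-TQ are not listed for SCC15. MT-TN, MT-TC, MT-TY and MT-TP hold most reads under DMSO, and of these the treated values of MT-TP alone stay near those of DMSO.

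Whether the response of each gene differed between the lines was tested as a contrast, the log2 fold change in SCC15 minus that in SCC25, over the 14454 genes tested in both. Of the 23 mitochondrial genes in it, 9 passed the threshold (limma), where 26.1% of all genes had a higher and 26.0% a lower response in SCC15 (3779 and 3761 genes, or 2396 and 5452 with equal library totals, which moved the median difference of all genes by -0.29). 4 had the higher response in SCC15, meaning a smaller fall. One of them, MT-TY, was at 3.78 ± 0.31 SE, a difference that is given as a description only, since this tRNA passed the filter in SCC25 only through DMSO and held 13 treated reads there. The others were MT-TN (3.00 ± 0.37 SE, limma adjusted p = 2.85e-05), MT-TC (2.86 ± 0.37) and MT-CO1 (0.51 ± 0.18, limma adjusted p = 0.0326). The call of MT-CO1 was lost with equal library totals, where the difference was 0.22, and without any 1 of the 6 DMSO libraries, squamocin replicate 1 of SCC15 or squamocin replicate 3 of SCC25. 5 had the lower response in SCC15. These were MT-CO2 (-2.01 ± 0.24, limma adjusted p = 1.70e-05), MT-ND3 (-1.70 ± 0.28), MT-ND4L (-1.34 ± 0.33), MT-ND4 (-1.32 ± 0.16) and MT-ND2 (-0.65 ± 0.19). Without squamocin replicate 3 of SCC15 the lower responses numbered 8, and without squamocin replicate 3 of SCC25 they numbered 9. Over all 14454 genes, they then numbered 4825 and 3738. The response of MT-RNR1 differed by -0.0033 ± 0.27 SE, and that of MT-RNR2 by 0.30 ± 0.25, neither past the threshold (limma adjusted p = 0.993 and 0.333). Over the 13 mRNAs, the log2 fold changes of both lines were correlated with 0.76 by Pearson and 0.54 by Spearman, as a description.

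Levels were compared between the rRNAs and mRNAs as reads per kilobase of the gene and 1e6 reads of the library, within a line. The tRNAs were left out of this order, although MT-TC was at 1527 ± 63.7 under DMSO in SCC15. With DMSO, MT-CO1 stood first at 3212 ± 25.9 (SD, n = 3) in SCC15, before MT-CO2 at 2111 ± 107. MT-CO3, MT-ND4 and MT-RNR2 came next at 1460.2 ± 42.8, 1455 ± 23.6 and 1424 ± 37.1, and these 3 did not differ beyond their spread. MT-ATP8 was the lowest at 132 ± 8.87. With squamocin, the order in SCC15 was led by MT-RNR2 at 2950.4 ± 334, followed by MT-CO1 at 893 ± 111 and MT-RNR1 at 886 ± 157, which overlapped, and MT-ND4 at 695 ± 87.2, whose range overlapped with that of MT-RNR1. Every other mRNA was below 384, the mean of MT-ND4L, and MT-ATP8 was at 5.66 ± 1.98. In SCC25, MT-CO1 also stood first under DMSO at 9225 ± 179.9, before MT-CO2 at 5898 ± 157. MT-ND4, MT-ATP6 and MT-RNR2 followed at 3793 ± 125, 3718 ± 83.5 and 3660.4 ± 102, with overlapping ranges. With squamocin, MT-RNR2 at 7629 ± 1609.8 and MT-ND4 at 5526 ± 709 led the order in SCC25 with ranges that overlapped, before MT-CO2 at 3718 ± 775 and MT-ND4L at 2584 ± 266, which also overlapped. MT-ND4 and MT-CO2 thus kept a high place in treated SCC25 cells, and in treated SCC15 cells MT-CO2 stood at 268 ± 37.1.

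Complexes I, III, IV and V are built from mitochondrial and nuclear gene products, so that the balance of their transcripts was compared as the summed values of the mitochondrial over those of the nuclear subunits. Most nuclear subunits were called higher, while most mitochondrial mRNAs fell. Of 71 nuclear subunits tested in SCC15, 57 were higher and 0 lower (median log2 fold change 0.81, limma), and of 72 in SCC25, 57 were higher and 7 lower (median 0.48), where the median of all genes was 0.012 and -0.015. Of all genes tested, 30.9% were higher and 30.0% lower in SCC15, against 38.3% and 38.5% for SCC25. Without any 1 of the DMSO replicates of SCC15, 37 or 38 were higher there, and without its squamocin replicate 3, 62 were higher and 4 lower with a median of 0.54. Over all genes, 3930 to 3982 were higher in the former fits, and 6086 higher and 6022 lower in the latter. With equal library totals, 29 were higher and 3 lower in SCC15 (median 0.31) and 45 higher and 12 lower in SCC25 (median 0.27). The median of all genes then lay at -0.50 and -0.23. Over all genes, 2336 of 16007 were higher and 8170 lower in SCC15, and 5013 of 16560 higher and 7881 lower in SCC25. In SCC15, 29 of 36 Complex I, 7 of 9 Complex III, 10 of 11 Complex IV and 11 of 15 Complex V subunits were higher, and in SCC25 28 of 37, 5 of 9, 11 of 11 and 13 of 15. The 7 lower genes of SCC25 were NDUFV3, NDUFS1 and NDUFB11 of Complex I, UQCRC2 and UQCRFS1 of Complex III, and ATP5F1A and ATP5F1C of Complex V, named after their values had been seen.

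The ratio of mitochondrial to nuclear subunits was lower under squamocin for each complex, without overlap between the groups. The Complex V ratio had the largest change. In SCC15 it was 0.371, 0.376 and 0.378 under DMSO and 0.0353, 0.0274 and 0.0222 under squamocin, and in SCC25 1.36, 1.45 and 1.39 against 0.18, 0.18 and 0.132. For Complex IV, the values were 5.27, 5.36 and 5.396 against 1.11, 0.917 and 0.623 in SCC15 and 13.7, 14.6 and 13.97 against 3.46, 3.68 and 2.54 in SCC25. The Complex III ratio rests on MT-CYB alone among the mitochondrial genes and went from 0.442, 0.477 and 0.473 to 0.0885, 0.0684 and 0.0495 in SCC15 and from 1.75, 1.93 and 1.81 to 0.599, 0.637 and 0.376 in SCC25. Among the summed ratios, that of Complex I changed least in SCC25. In SCC15 the Complex I ratio was 2.17, 2.15 and 2.24 under DMSO and 0.694, 0.573 and 0.345 under squamocin, and in SCC25 5.32, 5.65 and 5.41 against 3.900, 4.33 and 3.27. On the log2 scale, Complexes I, III, IV and V changed by -2.09, -2.79, -2.64 and -3.75 in SCC15, whereas SCC25 had -0.52, -1.81, -2.14 and -3.11. With the mean log2 over the subunits in place of their sums, Complex I in SCC25 changed by -1.72 and in SCC15 by -2.69. The exact permutation p was 0.1 for each of the 8 ratios, also after adjustment over them, the smallest p that 3 against 3 libraries allow.

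**Figure D5:**
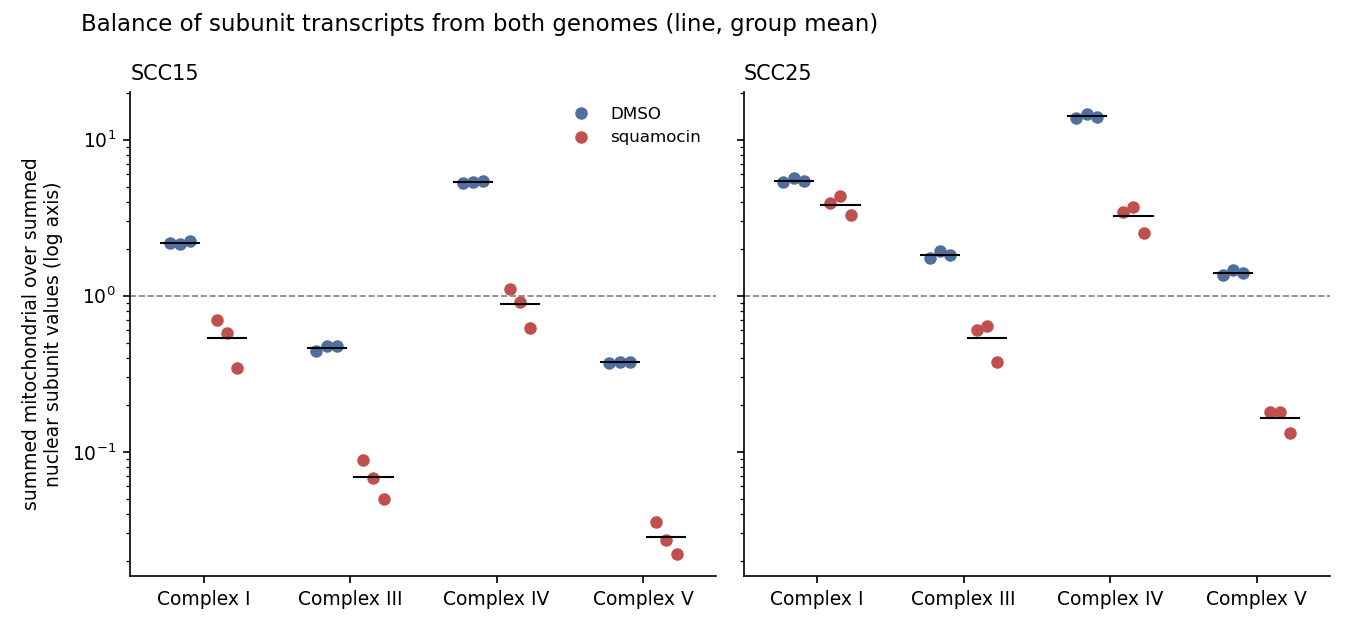
Summed normalized counts of the mitochondrial subunits over those of the nuclear subunits (log axis) for each library and complex, DMSO in blue and squamocin in red, with the group mean as a line and a dashed line at 1. All treated libraries lie below the DMSO libraries of their line, with the widest gap for Complex V and the narrowest for Complex I of SCC25.

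Nuclear factors that transcribe, process and stabilise mitochondrial RNA were followed on a list of 57 genes. In SCC15, 14 were higher, 24 lower and 19 not called (limma, median log2 fold change -0.18), where 30.9% of all genes tested were higher and 30.0% lower. In SCC25, 14 were higher, 32 lower and 10 not called of 56 tested (median -0.34), where 38.3% of all genes were higher and 38.5% lower. These counts depended on the scale and on single libraries. The higher genes of SCC15 numbered 1 with equal library totals, and 7, 8 and 7 without DMSO replicates 1, 2 and 3. The lower ones of SCC15 numbered 39 with equal library totals, and the higher ones of SCC25 9. Over all genes, 2336 of 16007 were then higher and 8170 lower in SCC15, and 5013 of 16560 higher in SCC25. Without DMSO replicates 1, 2 and 3 of SCC15, 3982, 3975 and 3930 of all genes were higher there. By role, and with the helicase TWNK, which the list had placed under transcription, counted under replication, 5 of 9 factors of transcription were lower in each line, as were 7 and 8 of 13 processing factors and 5 and 8 of 10 factors of rRNA modification and ribosome assembly. Of 8 genes of RNA stability and turnover, 5 in SCC15 and 6 in SCC25 were higher, with 0 and 2 lower. Of 10 replication factors, 2 were higher and 5 lower in SCC15 and 1 and 6 in SCC25, and of the regulators of biogenesis 2 were higher and 2 lower of 7 in SCC15 and 2 and 3 of 6 in SCC25.

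TEFM, the elongation factor of POLRMT, fell in both lines, by 1.02 and 0.74 on the log2 scale. POLRMT itself was 0.57 ± 0.091 in SCC15 (limma adjusted p = 0.00144) and -0.21 ± 0.08 in SCC25 (limma adjusted p = 0.0311). TFAM, which packages the genome and binds at the promoters, was -0.77 ± 0.084 in SCC15 (limma adjusted p = 0.000268) and 0.23 ± 0.063 in SCC25 (limma adjusted p = 0.00567). The call of POLRMT in SCC25 was lost without any 1 of its DMSO libraries, without squamocin replicate 2 (-0.097) and with all genes above 0 tested. With equal library totals POLRMT was no longer called in SCC15 (log2 fold change 0.069), nor TFAM in SCC25 (0.018), and TFAM there was at -0.0021 with equal totals of nuclear reads. MTERF1, which binds the marked bases of MT-TL1, was -0.68 ± 0.18 in SCC15 (limma adjusted p = 0.012) and -0.15 ± 0.11 in SCC25 (limma adjusted p = 0.25) and is named after its values were seen. TFB2M, which melts the promoter with POLRMT, was -0.18 ± 0.12 in SCC15 (limma adjusted p = 0.225) and -0.39 ± 0.10 in SCC25 (limma adjusted p = 0.00234). In SCC15, TFB2M was called lower with equal library totals (log2 fold change -0.68, limma adjusted p = 0.00112). It was also called lower there without squamocin replicate 3 (-0.26, limma adjusted p = 0.0187).

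Of the processing factors, TRMT10C, a subunit of RNase P, had the largest change with -1.76 ± 0.20 in SCC15 (limma adjusted p = 0.000347) and -1.87 ± 0.10 in SCC25 (limma adjusted p = 2.14e-09). Its values were 408, 436 and 425 under DMSO and 111, 99.2 and 174 under squamocin in SCC15. They were 812, 864 and 857 against 225, 267 and 201 in SCC25, and the groups did not overlap in either line. ELAC2, which cuts tRNA 3′ ends, was -0.25 ± 0.075 in SCC15 (limma adjusted p = 0.0238) and -0.75 ± 0.053 in SCC25 (limma adjusted p = 4.61e-08), with the call in SCC15 lost without any 1 of its DMSO libraries. In ribosome assembly, the helicase DDX28 was -2.09 ± 0.23 in SCC15 (limma adjusted p = 0.000284) and -3.49 ± 0.18 in SCC25 (limma adjusted p = 1.81e-09). Of the genes of RNA stability, LRPPRC, which holds the mRNA pool together with SLIRP, was 0.26 ± 0.078 in SCC15 (limma adjusted p = 0.0205) and -0.41 ± 0.042 in SCC25 (limma adjusted p = 1.53e-06), and at -0.23 in SCC15 with equal library totals. Its call in SCC15 was also lost without any 1 of the DMSO libraries. SLIRP was higher in both lines, at 0.84 ± 0.25 in SCC15 (limma adjusted p = 0.0225) and 0.52 ± 0.06 in SCC25 (limma adjusted p = 5.05e-06), but in SCC15 the call was lost with equal library totals (0.34) and without any 1 of the DMSO libraries. SUPV3L1 and PNPT1 form the degradosome. SUPV3L1 was higher in both (0.41 and 0.53, but -0.085 in SCC15 with equal library totals), and PNPT1 was -0.18 ± 0.13 in SCC15 (limma adjusted p = 0.268) and -0.16 ± 0.067 in SCC25 (limma adjusted p = 0.0449). In SCC15, PNPT1 was called lower with equal library totals (log2 fold change -0.68, limma adjusted p = 0.000831). It was also called lower there without squamocin replicate 3 (-0.31, limma adjusted p = 0.001). The call of PNPT1 in SCC25 was lost by DESeq2, with all genes above 0 tested and without DMSO replicate 1 or 2 or squamocin replicate 1 or 3. MTPAP, the poly(A) polymerase of mitochondria, was higher in both (0.43 and 0.68, but -0.071 in SCC15 with equal library totals). Its call in SCC15 was also lost with TMM factors, with all genes above 0 tested and without DMSO replicate 1 or 3 or squamocin replicate 1 or 2.

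In replication, TWNK, the helicase of the fork, was -2.20 ± 0.22 in SCC15 (limma adjusted p = 0.000182) and -2.25 ± 0.12 in SCC25 (limma adjusted p = 2.87e-09) on the log2 scale. The topoisomerase TOP1MT rose in SCC15 and fell in SCC25, at 0.86 ± 0.10 in SCC15 (limma adjusted p = 0.000329) and -0.94 ± 0.075 in SCC25 (limma adjusted p = 1.37e-07). The primase PRIMPOL was -1.19 ± 0.15 in SCC15 (limma adjusted p = 0.000561) and -0.23 ± 0.10 in SCC25 (limma adjusted p = 0.0501). PRIMPOL in SCC25 passed the threshold with equal library totals (log2 fold change -0.43, limma adjusted p = 0.00127) and equal totals of nuclear reads. It also passed with TMM factors, a pseudocount of 0.1, edgeR and without squamocin replicate 1. Of the regulators of biogenesis, GABPB1, a subunit of the factor that drives many nuclear genes for respiration, rose in both lines by 0.68 and 1.00, although without a call in SCC15 with equal library totals (0.18). The coactivator PPARGC1B fell in both, at -1.53 ± 0.29 in SCC15 (limma adjusted p = 0.00315) and -0.79 ± 0.085 in SCC25 (limma adjusted p = 2.43e-06). PPARGC1A was at 40.1, 30.8 and 33.2 under DMSO and 23.2, 18.2 and 14.9 under squamocin in SCC15 (log2 fold change -0.86 ± 0.26 SE, limma adjusted p = 0.0208) and is not listed for SCC25. This call was lost without DMSO replicate 1 or 3.

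Copies of mitochondrial genes lie in the nuclear genome, and reads may be shared with them. Of 72 such copies listed for SCC15, 3 passed the filter, and of 76 for SCC25, 5 did. The 3 with the highest values were the same in both lines and lie in 1 cluster on chromosome 1. MTATP6P1 (chr1:633696-634376) was at 1108, 982 and 912 under DMSO and 151, 169 and 175 under squamocin in SCC15 (log2 fold change -2.59 ± 0.11 SE, limma adjusted p = 1.01e-05). In SCC25, it was at 1581, 1430.2 and 1624 against 466, 451 and 338 (log2 fold change -1.89 ± 0.11 SE, limma adjusted p = 4.48e-09). MTND2P28 changed by -2.73 in SCC15 and -2.29 in SCC25, and MTCO1P12 by -1.09 and -1.51. The genes they copy, MT-ATP6, MT-ND2 and MT-CO1, had log2 fold changes of -2.92, -2.26 and -1.36 in SCC15, against -2.62, -1.62 and -1.87 in SCC25. Against the mitochondrial genes the copies held few reads, with a mean of 1001 normalized counts for MTATP6P1 in SCC15 under DMSO and 14119 for MT-ATP6. How reads that match several places were counted is not given in the sources used here, so the values of these copies are uncertain. How far those of the genes they copy are affected cannot be told from these reads.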

How the data were processed

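RNA-seq of total RNA from SCC15 and SCC25 cells was analysed, with 3 libraries for each of 4 groups. Per the labels and the methods, RNA was extracted with TRIzol, libraries were made with a NEBNext Ultra kit, and reads were aligned to GRCh38/hg38 with HISAT2 2.0.5 and counted with featureCounts 1.5.0-p3. Whether RNA was selected by poly(A) or depleted of rRNA, and how strand, overlapping genes and reads with several matches were treated, is not given in the sources used here. The deposited signal values are read counts per gene, each divided by the authors by a size factor of its library that they computed for either line alone. Whole reads were recovered from 100% of the values, also for SCC25, whose columns are headed as FPKM although their values are not. The deposited log2 fold changes, p-values and group means of the authors' own comparison were not used. The members and gene lists were chosen with earlier results of these data known.

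Genes with a mean of at least 10 normalized counts over the 6 libraries of a line were tested with limma 3.58.1 (R 4.3.3, eBayes with trend) on log2(normalized count + 1), a scale that understates the change of low genes. p-values were adjusted by Benjamini-Hochberg over all genes tested, with a threshold of 0.05. Shares and ratios, which need no size factor, were tested by two-sided exact permutation (scipy 1.17.1). All genes on MT are described. Of the nuclear factors, 11 set names and the gene with the largest called change in each role and line are named, and of the nuclear copies the 3 with the highest means. Count tests of the recovered reads (edgeR 4.0.16, DESeq2 1.42.0), other scalings, pseudocounts and filters, a replicate block and leaving out each library were alternatives. For tRNAs with few treated reads, folds come from pooled reads scaled by the size factors, with exact 95% intervals. The leukocyte markers that were also checked are not reported here.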

Additional observations from a re-analysis of the deposited data

Results flagged for a closer look

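Of the 23 mitochondrial genes tested in both lines, 9 differed in their response to squamocin by the test of the difference itself. The test was the limma contrast over all 12 libraries, log2 fold change in SCC15 minus that in SCC25. Of all 14454 genes in it, 26.1% had a higher and 26.0% a lower response in SCC15. Such calls were thus no more frequent among the mitochondrial genes than among all genes. The difference was 3.78 for MT-TY, 3.00 for MT-TN and 2.86 for MT-TC, the neighbouring tRNAs of the minus strand, and 0.51 for MT-CO1, whose call was lost with equal library totals (0.22) and without 8 of the 12 single libraries. MT-TY passed the filter in SCC25 only through the DMSO group, so that its difference is a description. It was -2.01 for MT-CO2, -1.70 for MT-ND3, -1.34 for MT-ND4L, -1.32 for MT-ND4 and -0.65 for MT-ND2. For MT-ND4, all treated libraries lay below the DMSO libraries in SCC15 and above them in SCC25. The treated values of the 3 tRNAs rest on 62 to 399 reads per gene in SCC15 and on 13 to 91 in SCC25.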

How the results depend on the processing

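All calls of mRNAs and rRNAs within a line kept their direction and side of the threshold under the alternatives run, and MT-ND4L in SCC25, not called, passed it with equal totals. Without the 2 rRNAs, the share of mitochondrial reads differed by -1.11 percentage points in SCC15 and -2.09 in SCC25, against -0.83 and -1.36. With the mean log2 over the members in place of summed reads, the log2 differences in SCC15 and SCC25 were 3.87 and 3.09 for rRNA over mRNA, -0.49 and -1.85 for tRNA over mRNA, 0.89 and -0.12 for MT-ND6 over the other mRNAs, and -2.69 and -1.72 for Complex I, -3.16 and -2.42 for Complex IV and -4.20 and -3.54 for Complex V.

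With equal library totals and with equal totals of nuclear reads, the nuclear factors were higher for 1 and 1 genes and lower for 39 and 40 in SCC15, and higher for 9 and 9 in SCC25. The nuclear subunits were higher for 29 and 28 genes and lower for 3 and 3 in SCC15, and lower for 12 and 12 in SCC25. The lower response in SCC15 was called for 9 and 9 mitochondrial genes. Over all genes, 2336 and 2281 were then higher and 8170 and 8294 lower in SCC15. For SCC25, 5013 and 4875 were higher and 7881 and 8044 lower. The lower response in SCC15 was called for 5452 and 5396 of all 14454 genes. With all genes above 0 tested, 1 nuclear subunit was lower in SCC15. Signs also turned with these totals for LRPPRC (-0.23 and -0.24), MTPAP (-0.071 and -0.083) and SUPV3L1 (-0.085 and -0.098) in SCC15, for MT-CO3 between lines (-0.12 and -0.12), and with nuclear totals for TFAM in SCC25 (-0.0021). With a pseudocount of 10, MT-TH between lines was 0.14. The cause was not tested.

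Leaving out each library in turn gave 7 to 17 higher nuclear factors in SCC15, 37 to 62 higher and 0 to 4 lower nuclear subunits in SCC15, and 5 to 9 mitochondrial genes with the lower response in SCC15. Over all genes, these fits called 3930 to 6086 higher and 3612 to 6022 lower in SCC15, and 3415 to 4825 with the lower response there. Log2 values that changed sign ranged over -0.10 to 0.051 for MT-ND4L in SCC25 and, between lines, -0.23 to 0.17 for MT-RNR1, -0.0090 to 0.31 for MT-CO3 and -0.90 to 0.16 for MT-TR (lowest without squamocin replicate 3 of SCC25 for MT-CO3), none of which passed the threshold in limma with all libraries. Same-numbered treated and control libraries did not deviate together (correlations of their deviations from -0.051 to 0.0078). A pairing by number was thus not seen, although so few libraries cannot exclude it. With the replicate number as a block, the calls of MT-CO1 between lines (limma adjusted p = 0.0659) and of ELAC2, LRPPRC and MTPAP in SCC15 were lost, 10 nuclear factors were higher in SCC15, against 14 without it, and over all genes 4665 were higher and 4451 lower in SCC15 and 6294 and 6317 in SCC25.

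MT-ATP6, MT-ATP8, MT-CYB, MT-ND1, MT-ND5 and MT-TP passed the threshold between lines under at least 1 alternative. So did MT-TL1 with a pseudocount of 10 and MT-TG without squamocin replicate 2 of SCC25. Both of these tRNAs passed the filter only through DMSO in either line, so that their differences are descriptions. The edgeR test of the recovered counts called 5074 higher and 4757 lower genes for SCC15, and 6413 and 6384 for SCC25. Genes with few reads, above all the tRNAs, limit what can be read from these libraries.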

Other observations

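Per length of the gene, the log2 level under DMSO and the log2 fold change of the mRNAs had a Pearson correlation of 0.61 in SCC15 and 0.44 in SCC25 (Spearman 0.48 and 0.32). This describes 13 genes that share the same libraries, of which those with higher levels tended to fall less. MT-CO3 and MT-ATP6 went the other way, with high levels under DMSO and large falls in both lines. MT-ATP8, the lowest under DMSO with the largest fall, has uncertain values. The length of the gene and the log2 fold change had correlations of 0.46 and 0.17 (Spearman 0.50 and 0.12). MT-ND4 stood against MT-ND3 at a read ratio of 10.4 under DMSO and 64.9 under squamocin in SCC15, and at 6.51 and 30.1 in SCC25, a pair chosen after its values had been seen.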
